A study of Homo sapiens with 12 samples.

Results

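Polycomb repressive complex 2 (PRC2) was followed through 10 genes, EZH2, EZH1, EED, SUZ12, RBBP4, RBBP7, JARID2, AEBP2, MTF2 and PHF19, by taking all probes annotated to these names on an Illumina HumanHT-12 version 4.0 bead array. They have 16 probes among 47230, and they are 10 of the 20046 genes that the array names. Of the 16 probes, 15 were above background (detection p under 0.01) on all 12 arrays. The exception was the single EZH1 probe, which was above background on 3 of 12.

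The samples were human embryonic stem cells (hESC). MEG3-ON NTU1 cells express the imprinted noncoding RNA MEG3 and are labelled with the better capacity for neural differentiation (4 arrays, replicates 1 to 4). MEG3-OFF NTU1 cells have lost MEG3 and are labelled with the worse capacity (5 arrays, replicates 5 to 9). H9, an established hESC line, is labelled MEG3-OFF (2 arrays), and 1 embryoid body (EB), an aggregate of differentiating cells, is labelled MEG3-ON. The study's methods describe the NTU1 samples as sublines of 1 line that were sorted by MEG3 level, and the EB as made from MEG3-ON hESC, with no day of differentiation given for this array. All hESC were grown on mouse embryonic fibroblast feeders in a serum-free primate ES medium, and no array had a drug, transgene or knockdown. How the sublines were separated is not stated, so the p-values below measure the spread between these samples only. Passage is not given per array, and time in culture and MEG3 status cannot be told apart. The 12 arrays were on 1 chip with each group in adjoining positions, so position and group cannot be told apart either.

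PRC2 places methyl groups on a lysine of histone H3 (H3K27me3), the mark of silenced developmental genes. Its core holds a methyltransferase, EZH2 or EZH1, together with EED, which binds the mark, SUZ12, the scaffold, and the histone chaperones RBBP4 and RBBP7. Accessory proteins divide the complex into 2 forms, one with a Polycomb-like protein (MTF2, PHF19 or PHF1) and one with JARID2 and AEBP2. In embryonic stem cells PRC2 holds lineage genes silent until differentiation. MEG3 RNA has been reported to bind PRC2 components, among them EZH2 and JARID2.

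The promoters of EZH2 and JARID2 are shown because the EB signals of these 2 genes lay on opposite sides of all undifferentiated arrays (EZH2 above, JARID2 below). RefSeq (GRCh38.p14) windows of 300 bases around gene starts were found for all 10 genes, 15 windows in all. Both strands were searched for CCAAT and for the E2F letters TTTGGCGC, TTTCCCGC, TTTGCCGC and TTTCGCGC, none of which overlaps CCAAT, and matches stand in capitals. The first EZH2 window is chr7:148884242-148884541 on the minus strand and the first JARID2 window is chr6:15245819-15246118 on the plus strand.
EZH2: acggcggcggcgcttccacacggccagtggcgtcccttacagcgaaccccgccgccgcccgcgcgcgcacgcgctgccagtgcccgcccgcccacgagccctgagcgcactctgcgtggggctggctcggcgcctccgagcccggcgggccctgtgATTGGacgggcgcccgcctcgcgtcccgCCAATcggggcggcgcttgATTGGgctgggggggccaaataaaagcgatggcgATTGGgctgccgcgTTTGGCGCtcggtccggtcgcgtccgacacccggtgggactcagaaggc
JARID2: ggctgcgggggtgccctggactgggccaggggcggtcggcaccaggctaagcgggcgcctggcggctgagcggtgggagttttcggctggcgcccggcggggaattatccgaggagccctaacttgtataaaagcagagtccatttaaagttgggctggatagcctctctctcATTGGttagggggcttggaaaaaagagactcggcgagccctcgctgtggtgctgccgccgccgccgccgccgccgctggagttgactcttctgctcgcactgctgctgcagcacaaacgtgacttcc
The EZH2 window holds 4 CCAAT matches and 1 E2F match, and the JARID2 window holds 1 CCAAT match and no E2F match. Over the genes, 6 of 10 had an E2F match in at least 1 window (EZH2, EZH1, SUZ12, MTF2, PHF19 and AEBP2), or 6 of 15 windows, where 3.31% of 35116 windows of the same length hold one. CCAAT was in 10 of 15 windows, where 34.6% of all windows hold it. The 2 RBBP4 windows overlap, so the same CCAAT match can be counted in both. A match of letters is a description of the sequence and no record of a bound factor.

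Levels are given as log2 normalized signal, and because probes differ in brightness no gene's level was set against another's. The labels were checked first. MEG3 had 4.97 to 6.30 in MEG3-OFF cells and was above background on 1 of 5 arrays, against 13.15 to 14.12 in MEG3-ON cells. It had 5.10 and 5.15 in H9, above background on 0 of 2 arrays, and 13.76 in the EB. Probes above background numbered 18796 in the EB, 17567 to 17946 in H9, 16878 to 17727 in MEG3-OFF and 16864 to 18390 in MEG3-ON arrays. Among pluripotency markers, 9 of 9 with a probe were above background on all undifferentiated arrays. In the EB 8 of 9 were, and NANOG was not. Levels were not equal among the undifferentiated groups. NANOG had 7.94 and 7.60 in H9, 10.51 to 11.04 in MEG3-OFF and 9.69 to 10.38 in MEG3-ON cells.

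**Figure D1:**
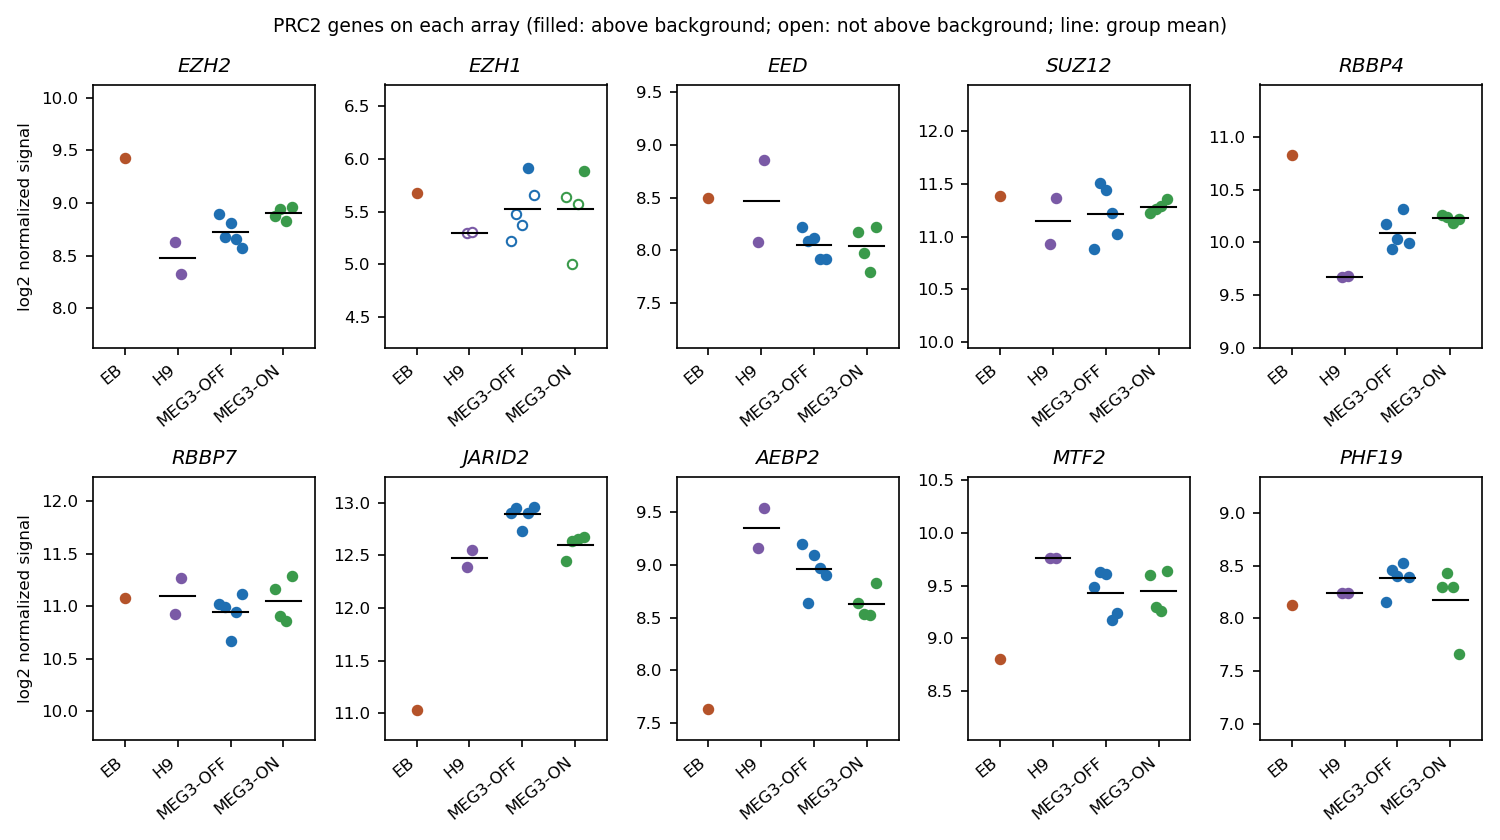
Log2 normalized signal (y axis, 2.5 units in every panel) of the probe used for each gene on the EB, H9, MEG3-OFF and MEG3-ON arrays (x axis). Points are arrays, open where not above background, and lines are group means. JARID2 is at 11.03 in the EB and at 12.39 or above on all 11 undifferentiated arrays, while EZH2 is at 9.43 in the EB and at 8.96 or below on the others.

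MEG3-OFF cells were set against MEG3-ON cells to ask whether mRNA of the complex differs with MEG3. None of the 9 genes tested passed the threshold, and none reached 1.5-fold. The core genes EED, SUZ12, RBBP4 and RBBP7 differed by 0.14 or less on the log2 scale. By the probe used for each gene, JARID2 and AEBP2 had the largest differences, both higher in MEG3-OFF. Another probe of PHF19, ILMN_1745420, gave a larger one, 0.41. With limma and Benjamini-Hochberg adjustment over all 10775 genes, 0 of 9 were called where 3.58% of all genes were. At an unadjusted p under 0.05 there were 2 of 9, against 22.3% of all genes, and the median size of difference was 0.14 for the 9 genes and 0.17 over all genes.

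JARID2 is a DNA-binding relative of the demethylases, itself without that activity, that recruits PRC2 to target genes. Its signals were 12.90, 12.95, 12.73, 12.90 and 12.96 in MEG3-OFF cells, against 12.44, 12.63, 12.65 and 12.68 in MEG3-ON cells. All 5 MEG3-OFF arrays lay above all 4 MEG3-ON arrays, the only one of the 9 genes for which the groups did not overlap, as held for 8.25% of all genes. The group values were 12.89 ± 0.09 (SD, n = 5) in MEG3-OFF and 12.60 ± 0.11 (SD, n = 4) in MEG3-ON cells. The fitted difference was 0.29 ± 0.10 (SE), with a 95% interval of 0.07 to 0.51 (unadjusted p = 0.0145 and adjusted p = 0.127 in limma). JARID2 therefore did not pass the threshold over all genes, and its adjusted p ran between 0.0693 and 0.276 over the other settings with an adjusted p.

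AEBP2, a zinc finger protein that stabilises the complex, had 9.20, 8.64, 9.10, 8.98 and 8.91 in MEG3-OFF cells, against 8.64, 8.53, 8.52 and 8.83 in MEG3-ON cells. MEG3-OFF replicate 6 lay within the MEG3-ON range and the other 4 lay above it. The difference was 0.33 ± 0.13 (interval 0.05 to 0.61, adjusted p = 0.158 in limma).

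EZH2, the main methyltransferase of dividing cells, had 8.89, 8.68, 8.81, 8.66 and 8.57 in MEG3-OFF cells, against 8.88, 8.94, 8.83 and 8.96 in MEG3-ON cells. The MEG3-ON arrays lay close together, and 4 of 5 MEG3-OFF arrays were below all of them. The difference of -0.18 ± 0.10 (interval -0.40 to 0.05, adjusted p = 0.322 in limma) was not distinguished from 0. Its other probes gave -0.24 and -0.06 and did not pass either.

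EED gave 0.01 (interval -0.25 to 0.28) and MTF2, which recruits PRC2 to unmethylated CpG islands, gave -0.02 (interval -0.32 to 0.27). SUZ12 gave -0.07 (interval -0.36 to 0.23), RBBP7 -0.10 (interval -0.38 to 0.17) and RBBP4 -0.14 (interval -0.37 to 0.10). PHF19, another Polycomb-like protein, gave 0.22 (interval -0.12 to 0.55), and its MEG3-ON replicate 4 was low, at 7.67. By the probe used for each gene, only the interval of AEBP2 reached a 1.5-fold difference, and those of the other 8 genes tested ended short of it. The interval of PHF19 probe ILMN_1745420, 0.03 to 0.79, also went past that difference. EZH1, the methyltransferase of resting cells, was above background on 1 of 5 MEG3-OFF and 1 of 4 MEG3-ON arrays and was not tested.

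By the probe used for each gene, the arrays of JARID2 and EZH2 lay close together. Another EZH2 probe, ILMN_1652913, was wider, with an SD of 0.37 in MEG3-OFF and 0.18 in MEG3-ON cells. The pooled SD within MEG3-OFF and MEG3-ON was 0.10 for both genes, where the median of all genes tested was 0.20, and PHF19 had the widest of the 9 at 0.25.

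**Figure D2:**
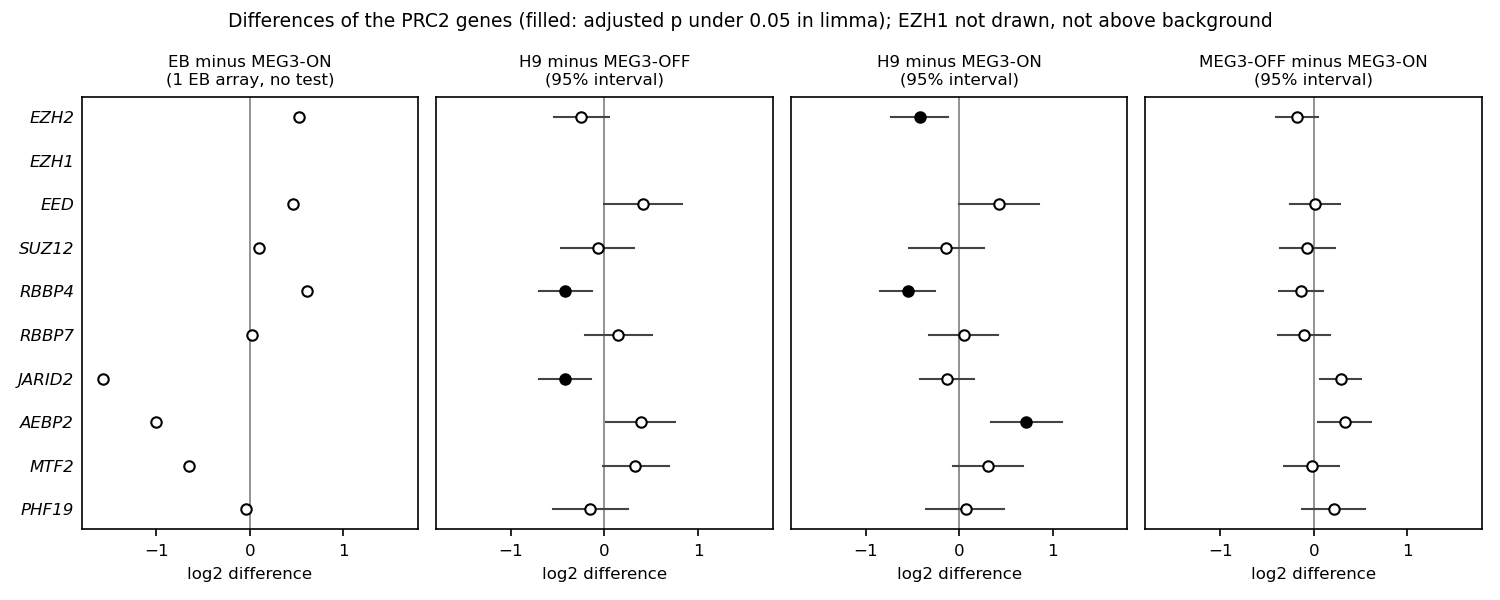
Log2 differences (x axis) of the genes (y axis) in EB minus MEG3-ON, H9 minus MEG3-OFF, H9 minus MEG3-ON and MEG3-OFF minus MEG3-ON, with the 95% interval where a test was made and filled points for an adjusted p under 0.05 in limma. No point is filled for MEG3-OFF minus MEG3-ON, and the JARID2 point lies at -1.57 in the EB panel.

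H9 cells were then compared with both NTU1 groups, to see whether another line without MEG3 carried the same PRC2 levels. H9 differed from MEG3-OFF NTU1 cells, with which it shares the label, in JARID2, which was lower. Against MEG3-ON cells AEBP2 was higher in H9 and EZH2 was lower. RBBP4 was lower than both by its brightest probe, while another of its probes was higher than both, so it has no settled direction as a gene. None of these exceeded 1.65-fold. Line and MEG3 status differ together in the second comparison and cannot be told apart there.

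JARID2 had 12.39 and 12.55 in H9, against a lowest of 12.73, a median of 12.90 and a highest of 12.96 in MEG3-OFF cells, so the arrays did not overlap. The difference was -0.42 ± 0.13 (SE, interval -0.70 to -0.14, adjusted p = 0.0261 in limma over 11583 genes). Against the 12.60 of MEG3-ON cells it was -0.13 (adjusted p = 0.484), with the higher H9 array inside the MEG3-ON range. JARID2 thus passed in 1 of the comparisons with H9, and it did not pass there when either H9 array was left out (adjusted p = 0.148 without replicate 1 and 0.0960 without replicate 2).

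AEBP2, the partner of JARID2, had 9.16 and 9.54 in H9, against 8.52 to 8.83 in MEG3-ON and 8.64 to 9.20 in MEG3-OFF cells. H9 lay above all MEG3-ON arrays (0.72 ± 0.18, adjusted p = 0.00904) and overlapped with MEG3-OFF (0.39 ± 0.17, adjusted p = 0.0953). Without H9 replicate 2 the adjusted p against MEG3-ON was 0.136.

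EZH2 had 8.63 and 8.32 in H9, against 8.83 to 8.96 in MEG3-ON and 8.57 to 8.89 in MEG3-OFF cells. It was lower than in MEG3-ON (-0.42 ± 0.14, adjusted p = 0.0393) and was not distinguished from MEG3-OFF (-0.25 ± 0.14, adjusted p = 0.185). All 3 EZH2 probes had both H9 arrays below all MEG3-ON arrays, with differences of -0.59, -0.40 and -0.42. The call rested on the choice of fit: over all probes the adjusted p was 0.0513, without any 1 of the 4 MEG3-ON arrays it was 0.0534 to 0.0758, and without H9 replicate 2 it was 0.337.

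RBBP4, shared by PRC2 with histone deacetylase and chromatin assembly complexes, had 9.67 and 9.68 in H9, against 9.93 to 10.31 in MEG3-OFF and 10.19 to 10.26 in MEG3-ON cells. By this probe, the brightest of the 3, H9 was lower than MEG3-OFF (-0.42 ± 0.13, adjusted p = 0.0298) and MEG3-ON (-0.55 ± 0.14, adjusted p = 0.00981). The other RBBP4 probes pointed the other way, as described with the probes below. Against MEG3-OFF the adjusted p was 0.101 without H9 replicate 1, 0.159 without H9 replicate 2 and 0.0551 without MEG3-OFF replicate 8, and against MEG3-ON it was 0.0681 without H9 replicate 2.

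MTF2 had 9.76 on both H9 arrays, above the 9.17 to 9.63 of MEG3-OFF and the 9.26 to 9.64 of MEG3-ON cells. It passed in neither comparison (0.33 ± 0.17, adjusted p = 0.137, and 0.31 ± 0.17, adjusted p = 0.183). EED was uneven between the H9 arrays, with 8.08 and 8.85, and gave 0.41 ± 0.19 against MEG3-OFF and 0.43 ± 0.20 against MEG3-ON (adjusted p = 0.116 and 0.122). With the second H9 array alone it passed in both (0.80, adjusted p = 0.0142, and 0.81, adjusted p = 0.0157). SUZ12, PHF19 and RBBP7 differed by 0.15 or less in either direction and did not pass. EZH1 was above background on neither H9 array and has no fold, though it is counted among the 10 below.

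In counts, 2 of 10 genes were called between H9 and MEG3-OFF, where 31.4% of all genes were, and 3 of 10 between H9 and MEG3-ON, where 29.1% of all genes were. Arrays did not overlap for 3 of 10 and 4 of 10 genes, where this held for 44.3% and 48.7% of all genes. The median difference of the 10 genes was -0.11 against MEG3-OFF (-0.07 over all genes) and -0.04 against MEG3-ON (-0.03 over all genes). Both comparisons use the same 2 H9 arrays.

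The EB was set beside the 4 MEG3-ON arrays as differentiated material from cells that express MEG3. With 1 EB array no test could be made, and the values compare these arrays only. JARID2 was 2.96-fold lower in the EB, AEBP2 was lower by more than 1.5-fold as well, and MTF2 lay at that limit, at -0.65, or -0.58 and short of it without background correction, by the authors' matrix or without MEG3-ON replicate 4. EZH2 (all 3 probes) and RBBP4 (1 of 3 probes) lay above all undifferentiated arrays, while SUZ12 and RBBP7 of the core were within their range. In bulk RNA, fewer cells that express a gene and less RNA per cell cannot be told apart.

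The JARID2 signal was 11.03 in the EB, against 12.44 to 12.68 in MEG3-ON cells, a difference of -1.57. Over all 11 undifferentiated arrays, H9 included, JARID2 lay between 12.39 and 12.96. AEBP2 had 7.63 in the EB, against 8.52 to 8.83 in MEG3-ON cells (-1.0). MTF2 had 8.80 in the EB, against 9.26 to 9.64 in MEG3-ON cells (-0.65). These 3 accessory genes were below every undifferentiated array.

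EZH2 had 9.43 in the EB, against 8.83 to 8.96 in MEG3-ON cells (0.53). Its other probes had 9.27 in the EB against 8.55 to 8.81, and 9.28 against 7.92 to 8.33, differences of 0.59 and 1.10. RBBP4 had 10.83 in the EB, against 10.19 to 10.26 in MEG3-ON cells (0.61). EED gave 0.46, with a level in the EB that H9 replicate 2 exceeded. SUZ12 gave 0.10, RBBP7 0.02 and PHF19 -0.04. EZH1 was at 5.68 in the EB, above background there, and within the range of the undifferentiated arrays.

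Of the 10 genes, 4 were past 1.5-fold, where 36.6% of the 11763 genes compared were. Of these 4, MTF2 and RBBP4 were short of it without background correction (-0.58 and 0.58), and RBBP4 was at 0.20 with the mean of its probes. Over probes 7 of 16 were, where 35% of all probes were. The EB lay outside the range of the 11 undifferentiated arrays for 5 of 10 (EZH2 and RBBP4 above, JARID2, AEBP2 and MTF2 below), where this held for 52.3% of all genes. Cell type markers differed in the same array. The summed linear signal of 9 pluripotency markers was 26300 in the EB against 62700 to 66900 in MEG3-ON cells, with NANOG not above background in the EB. That of 8 neuroectoderm markers was 27000 against 5170 to 6730, with SOX1 not above background in either group. Of these markers 4 were past 1.5-fold higher, and HESX1 went the other way, at 8.6 against 9.92 to 10.82. Mesoderm markers (7 genes) summed to 3930 against 204 to 642, with 6 of 7 not above background in the EB and HAND1 the exception. Endoderm markers (7 genes) summed to 2050 against 299 to 524, trophoblast and amnion markers (6 genes) to 1510 against 319 to 1400, and fibroblast markers (7 genes) to 5480 against 2270 to 3230. Not above background in the EB were SOX17, GATA4 and GATA6 (endoderm), GCM1, KRT7 and GATA3 (trophoblast and amnion) and DCN (fibroblasts). The part of all these markers in the PRC2 values was not tested.

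**Figure D3:**
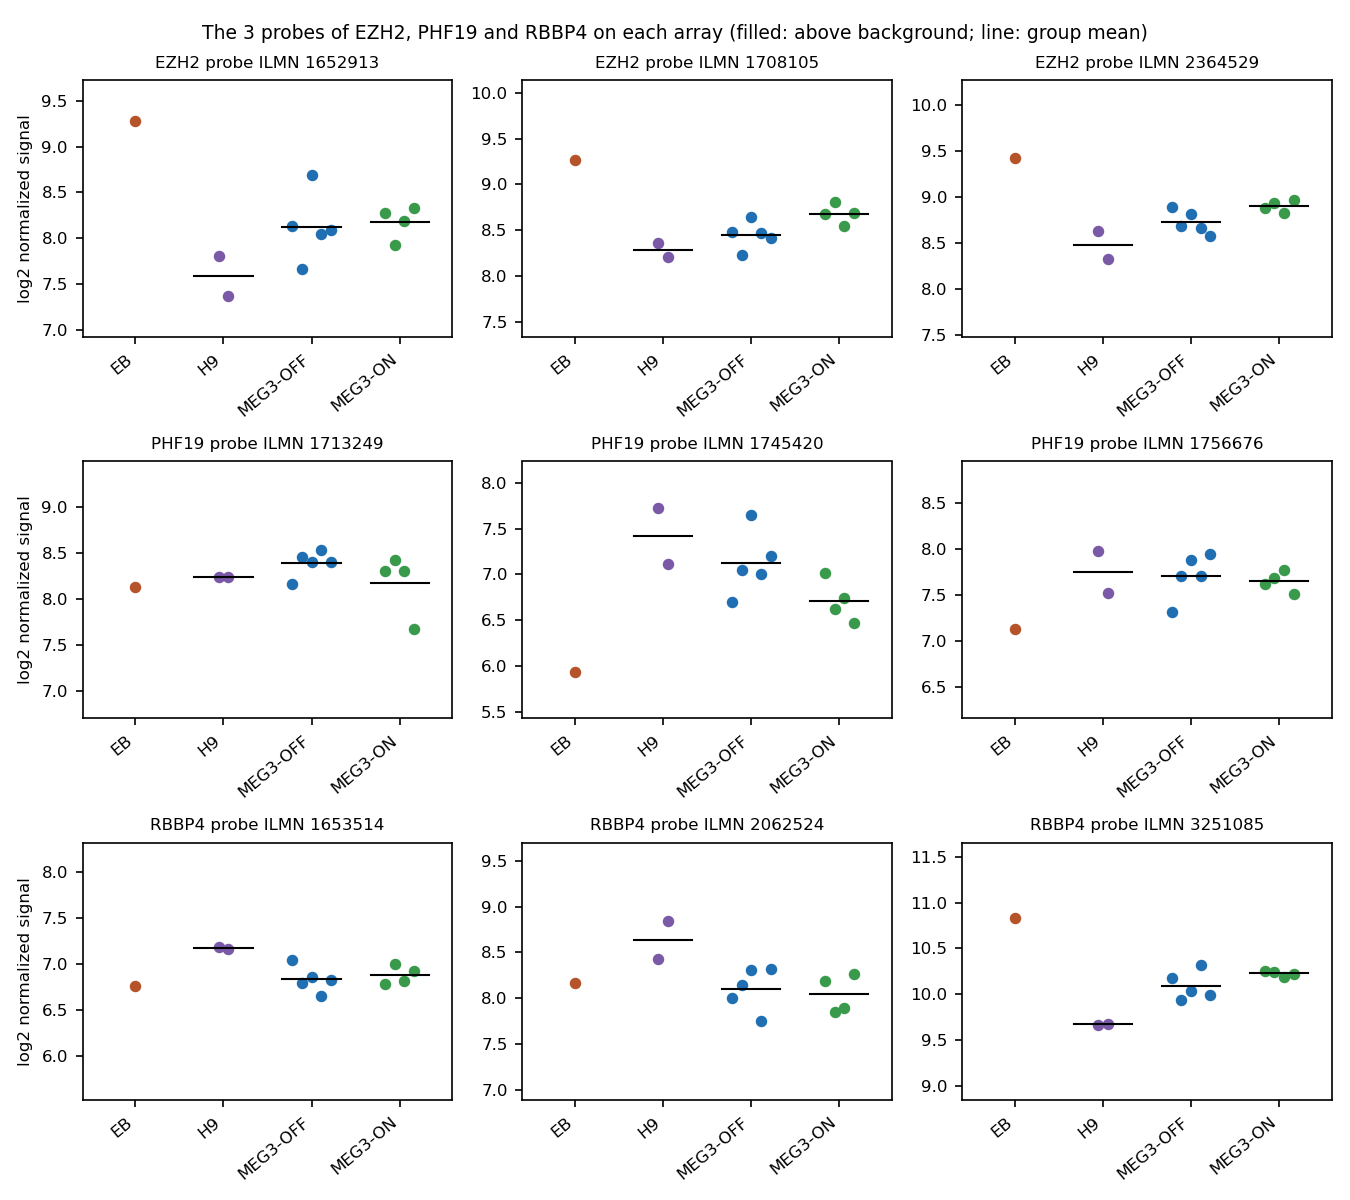
Log2 normalized signal (y axis, 2.8 units in every panel) of each probe of EZH2 (top), PHF19 (middle) and RBBP4 (bottom) on the EB, H9, MEG3-OFF and MEG3-ON arrays (x axis), with lines at group means. For RBBP4 the right panel has H9 lowest at 9.67, while the other 2 panels have H9 highest, at 7.17 and 8.64.

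Single probes were read because 3 of the genes have 3 probes each, which target different stretches or transcripts. Probe sequences were not given, and RefSeq lists pseudogenes of SUZ12, RBBP4 and EED, so whether any probe also matches these was not tested. RBBP4 showed a disagreement. Probe ILMN_3251085, annotated to transcript NM_001135255, gave the lower H9 values described above. Probe ILMN_2062524, annotated to NM_005610, had 8.43 and 8.84 in H9, against 7.75 to 8.32 in MEG3-OFF and 7.85 to 8.26 in MEG3-ON cells. It was higher in H9 in both comparisons (0.53 ± 0.19, adjusted p = 0.0499, and 0.59 ± 0.20, adjusted p = 0.0420, in limma over 19760 probes). Probe ILMN_1653514, annotated to the same NM_005610, had 7.18 and 7.17 in H9, above all NTU1 arrays, and did not pass (adjusted p = 0.0877 and 0.153). The EB likewise stood apart by 1 probe only, with differences of 0.61 for ILMN_3251085 and of 0.12 and -0.12 for the others. With the mean of the 3 probes, the H9 differences turned to 0.15 and 0.11 and did not pass, so the direction for RBBP4 as a gene is not settled.

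PHF19 has 1 probe annotated to NM_015651 (ILMN_1713249) and 2 to NM_001009936. On the first, values overlapped in all groups. ILMN_1745420 had 7.73 and 7.11 in H9, against 6.47 to 7.02 in MEG3-ON cells, and was higher (0.71 ± 0.24, adjusted p = 0.0472). It had 6.70 to 7.64 in MEG3-OFF cells, with a difference to MEG3-ON of 0.41 ± 0.18 (unadjusted p = 0.0375 and adjusted p = 0.203 in limma). In the EB it was 5.93, a difference of -0.78, and the third probe gave -0.52. Over probes, 0 of 15 were called between MEG3-OFF and MEG3-ON, where 2.87% of 17746 probes were. At an unadjusted p under 0.05 there were 3 of 15, against 22% of all probes. Between H9 and MEG3-OFF 3 of 16 probes were called (28.1% of all), and between H9 and MEG3-ON 4 of 16 (24.6% of all).

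Other genes of the Polycomb system were read from lists chosen with earlier results of these data known, so their counts and medians are a description. Of 6 facultative partners of PRC2, 4 were tested between MEG3-OFF and MEG3-ON. EPOP and SKIDA1 were lower in MEG3-OFF, and PHF1 (0.09) and LCOR (-0.23) did not pass. Over all genes 3.58% were called, and the count of 2 in this list ran from 0 to 2 over the 20 alternatives. The median difference of the 4 was -0.57, against 0.02 over all genes.

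EPOP, an Elongin-binding partner of the Polycomb-like form of PRC2, had 6.99, 6.41, 6.78, 6.71 and 6.34 in MEG3-OFF cells, against 7.60, 7.50, 7.61 and 7.53 in MEG3-ON cells. All MEG3-OFF arrays were below all MEG3-ON arrays (-0.91 ± 0.14, adjusted p = 0.00277 in limma). H9 had 7.32 and 7.02, higher than MEG3-OFF (0.52 ± 0.17, adjusted p = 0.0356), and that call was lost without either H9 array (adjusted p = 0.232 and 0.0934), without MEG3-OFF replicate 6 (0.0682) and without MEG3-OFF replicate 9 (0.0668). The EB had 9.27, which is 1.71 above the MEG3-ON mean.

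SKIDA1, which copurifies with PRC2, had 8.73, 8.32, 8.65, 8.88 and 7.93 in MEG3-OFF cells, against 9.30, 9.10, 9.46 and 9.81 in MEG3-ON cells. These groups did not overlap either (-0.91 ± 0.19, adjusted p = 0.0229). Its call was lost without MEG3-OFF replicate 6 (adjusted p = 0.0583), MEG3-ON replicate 1 (0.0540) or MEG3-ON replicate 4 (0.0866). H9 was lowest, at 7.63 and 7.17 (-1.11 ± 0.25 against MEG3-OFF, adjusted p = 0.00606, and -2.02 ± 0.25 against MEG3-ON, adjusted p = 0.000198), and the EB was highest, at 11.85 (2.43).

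**Figure D4:**
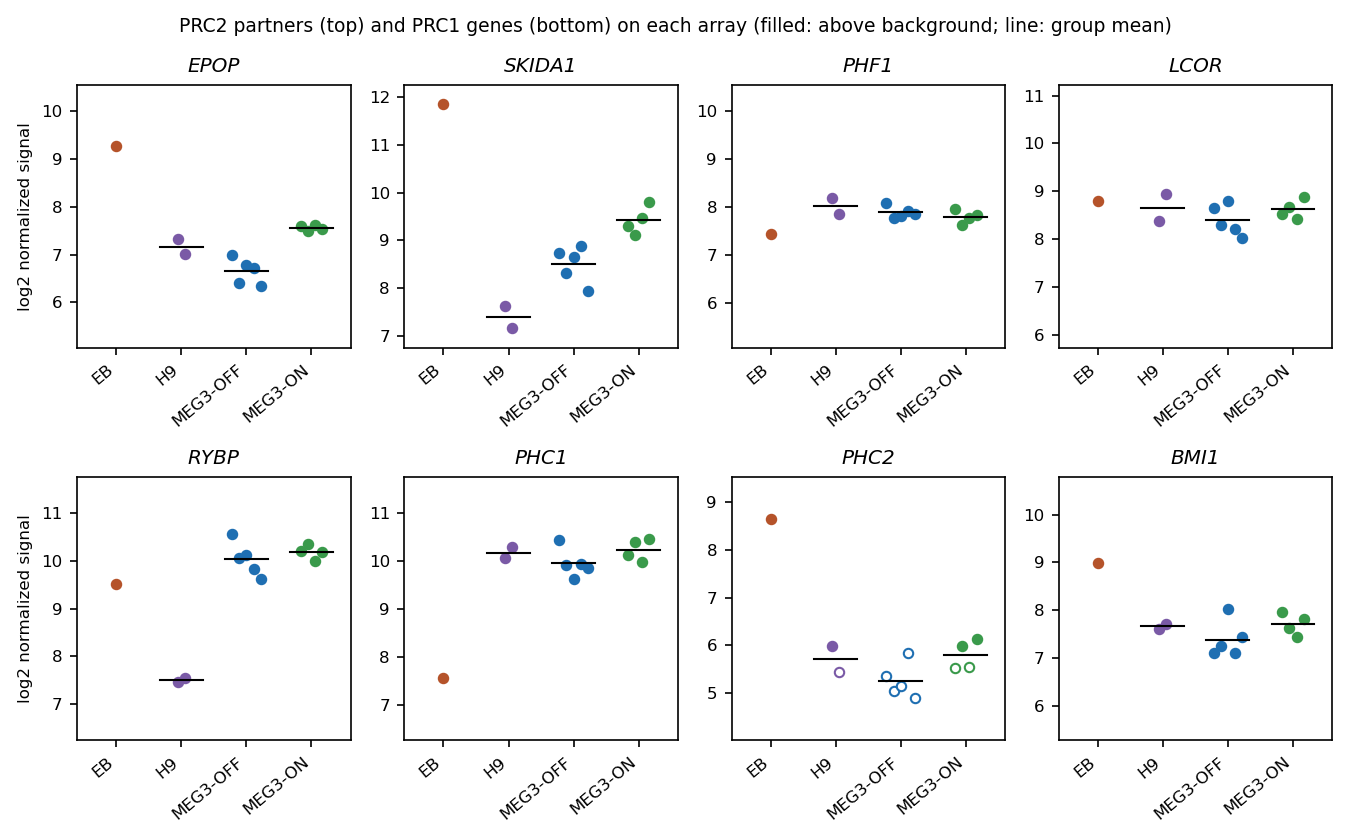
Log2 normalized signal (y axis, 5.5 units in every panel) of 4 PRC2 partners (top) and 4 PRC1 genes (bottom) on the EB, H9, MEG3-OFF and MEG3-ON arrays (x axis), open points where not above background, lines at group means. EPOP and SKIDA1 are lower in MEG3-OFF than in MEG3-ON cells and highest in the EB, at 9.27 and 11.85.

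The summed signal of the 8 neuroectoderm markers was also lower in MEG3-OFF cells, at 2740 to 4200 against 5170 to 6730 in MEG3-ON arrays. In H9, where SKIDA1 was lowest, the sum was 4200 to 4350, with PAX6, LHX2, SIX3 and SOX1 not above background. The single markers of H9 went both ways. HESX1 had 9.91 and 10.09 there against 8.32 to 9.42 in MEG3-OFF cells, and LHX2 had 4.57 and 4.54 against 4.70 to 7.19. The part of these markers in the values of EPOP and SKIDA1 was not tested. Of 50 regulators of development of the kind that PRC2 marks in stem cells, 15 were bright enough to be tested, some of them only through the MEG3-ON arrays, so their calls are not counted by direction. PAX6, an eye and forebrain regulator, was at least 1.76-fold lower, and SIX3, a forebrain regulator, at least 1.68-fold lower, as neither was above background in MEG3-OFF cells. Both passed the filter only through their MEG3-ON arrays, so no p-value is given for them. PAX6 was also named by the study from these same samples. LHX2 was lower, at 5.91 ± 1.02 in MEG3-OFF and 8.61 ± 0.62 in MEG3-ON cells, and RAX at 6.05 ± 1.03 and 8.07 ± 0.39. In MEG3-OFF cells LHX2 was above background on replicates 7 and 8 only, and RAX on replicates 6, 7 and 8 only. Their MEG3-OFF means thus include signals that were not above background. LHX2 and RAX also needed their MEG3-ON arrays to pass the filter, so no p-value is given for them either. The calls of EPOP and SKIDA1 did not hold in the methods' t-test after Benjamini-Hochberg adjustment (adjusted p of at least 0.107). NKX2-5, a heart regulator named after its values were seen, lay the other way, at 5.48 to 6.93 in MEG3-OFF against 4.47 to 4.83 in MEG3-ON cells, and was above background on too few arrays (2) to be tested.

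No other list of chromatin or proliferation genes held a call between MEG3-OFF and MEG3-ON. These were PRC1, the second Polycomb complex (0 of 17), PR-DUB, which removes its ubiquitin mark (0 of 7), the NuRD, SIN3 and CAF-1 complexes that share RBBP4 and RBBP7 (0 of 20), COMPASS methyltransferases (0 of 11) and proliferation genes (0 of 21). Over all genes 3.58% were called, so lists of this size would hold few calls. Unadjusted p-values under 0.05 numbered 1, 1, 2, 1 and 2 in these lists, where 22.3% of all genes had one. Enzymes that remove or oppose H3K27me3 had 0 of 3 calls with 3 of 3 unadjusted p under 0.05, and a median difference of -0.46. The lowest p there was that of the acetyltransferase EP300, at 7.51 ± 0.46 in MEG3-OFF and 8.13 ± 0.03 in MEG3-ON cells (-0.62 ± 0.20, adjusted p = 0.0964). MEG3-OFF replicate 5 stood apart for EP300, at 8.27 against 7.16 to 7.62 on the other MEG3-OFF arrays. Without it 3 of 3 of these enzymes were called, as were 2 NuRD, SIN3 and CAF-1 genes and 1 proliferation gene, where 993 of all genes were called in place of 386. The mean of a gene's probes called 1 PRC1 gene, and limma with trend and robust settings 1 NuRD, SIN3 and CAF-1 gene. In proliferation 1 gene was called without background correction, by the authors' matrix, with trend and robust settings, or without MEG3-ON replicate 3.

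Between H9 and MEG3-OFF, 6 of 18 PRC1 genes were called, 5 lower and 1 higher, with a share of 33.3% where 31.4% of all genes were called. RYBP, which sits in variant PRC1, was the furthest apart. It had 7.46 and 7.55 in H9, against 9.62 to 10.55 in MEG3-OFF cells (-2.53 ± 0.20, adjusted p = 6.72e-06) and 9.98 to 10.35 in MEG3-ON cells (-2.68 ± 0.21, adjusted p = 4.06e-06). CBX2, a reader of H3K27me3, was lower in H9 than in MEG3-OFF and MEG3-ON (-0.68 and -0.82, adjusted p = 0.00639 and 0.00260). Without H9 replicate 2 neither CBX2 call held (-0.53 and -0.67, adjusted p = 0.118 and 0.0514), and with the mean of its probes CBX2 was at -0.18 against MEG3-ON (adjusted p = 0.365). PCGF6 was higher than in MEG3-OFF and MEG3-ON by 0.62 and 0.57 (adjusted p = 0.0143 and 0.0258). The PCGF6 call was lost without H9 replicate 2 in both comparisons (0.40 and 0.35, adjusted p = 0.239 and 0.295), and against MEG3-ON also without replicate 1, 2 or 3 of MEG3-ON (adjusted p = 0.0521 to 0.0607). With the mean of its probes PCGF6 was at 0.30 against MEG3-OFF (adjusted p = 0.134). KDM6A, an H3K27 demethylase, was higher in H9 than in MEG3-OFF cells (0.97 ± 0.20, adjusted p = 0.00469). At 8.24 and 8.81 in H9 it overlapped with the 7.77 to 8.40 of MEG3-ON cells and was not called there. Of the 3 genes tested in its list, 2 were called lower in H9 than in MEG3-ON cells, the acetyltransferases EP300 and CREBBP. That is a share of 66.7% where 29.1% of all genes were called. EP300 kept its call in 13 and CREBBP in 11 of 15 alternatives. Against MEG3-ON cells 7 of 18 PRC1 genes were called, 6 lower and 1 higher, a share of 38.9% where 29.1% of all genes were called. In NuRD, SIN3 and CAF-1, 6 of 20 genes were called against MEG3-OFF, a share of 30%, near the 31.4% of all genes. Of these, 5 were lower, among them the NuRD genes MTA1 (-0.81 ± 0.15) and GATAD2A (-0.77 ± 0.13), and SAP18 was higher (1.02 ± 0.14). Proliferation genes split, with 4 higher and 3 lower of 21, a share of 33.3%. Over all genes 13.2% were called higher in H9 than in MEG3-OFF and 18.2% lower. Against MEG3-OFF without H9 replicate 2, where 554 of all genes were called in place of 3642, the calls were 3 in PRC1, 2 in NuRD, SIN3 and CAF-1 and 1 in proliferation. KDM6A (0.69, adjusted p = 0.111) and MTA1 (-0.53, adjusted p = 0.0801) then lost their calls, while RYBP, GATAD2A and SAP18 passed in all 16 alternatives run. Against MEG3-ON the PRC1 calls were 3 without H9 replicate 1, H9 replicate 2 or MEG3-ON replicate 3.

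In the EB, 13 of 19 PRC1 genes were past 1.5-fold, 8 higher and 5 lower, where 36.6% of all genes were. YAF2, among the higher, was compared only through its level in the EB. PHC1 and PHC2, paralogous PRC1 subunits, lay on opposite sides. PHC1 had 7.57 in the EB against 9.98 to 10.47 in MEG3-ON cells, and PHC2 had 8.65 in the EB against 5.53 to 6.14 in MEG3-ON cells, where it was above background on 2 of 4 arrays. BMI1, a PRC1 subunit, was higher by 1.27, and BCOR, of variant PRC1, gave a difference of -1.68. Of 50 developmental regulators 29 were compared, some of them only because they were above background in the EB, so their directions are not counted. SIX6 differed by 5.89 and HAND1 by 5.33, and IRX2 by -1.22. Among 21 proliferation genes 3 were higher and 1 lower, a share of 19% beside the 36.6% of all genes, with E2F2 at 2.02 and TYMS at 1.26.

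Finally, genes with the pattern nearest to EZH2 and JARID2 were sought over the 11 undifferentiated arrays among 11582 genes, as a description, since these arrays share lines and groups. The nearest to EZH2 were CBLN1 (Pearson r = 0.938, Spearman rho = 0.955), SALL1 (0.937 and 0.936) and the probe annotated to the microRNA gene MIR25 (0.928 and 0.927). The nearest to JARID2 were LZTS1 (0.953 and 0.893), ZDHHC9 (0.949 and 0.893) and PLCB2 (0.936 and 0.893).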

How the data were processed

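Gene expression was measured on 12 Illumina arrays. The authors deposited 2 tables. In the first, which has no normalization, each probe has its mean bead intensity per array, with the background left in, and a detection p-value. The deposited p-value is the share of negative control beads with as high a signal, as the array's software gives it. In the second, the intensity deposited is one that the authors log transformed and quantile normalized in Partek, put back on a linear scale, and it was used as an alternative. Of 47230 probes, 30113 had 1 gene symbol in the supplied annotation, 8 several and 17109 none, and 30074 could be tied to RefSeq (GRCh38.p14) for current names. The number of arrays limits the precision.

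With limma 3.58.1 (R 4.3.3; tables read by the data.table package, version 1.17.8), neqc (offset 16) removed the background estimated from detection p-values, then quantile normalized the 12 arrays and took log2, so a difference understates that of dim genes. Of the probes of a gene the one with the highest mean was used. MEG3-OFF and MEG3-ON were compared over their 9 arrays (genes above background on at least 4), and H9 with both in 1 fit of the 11 undifferentiated arrays (at least 2), by lmFit and eBayes. P-values were adjusted by Benjamini-Hochberg across every gene tested, with 0.05 as the threshold. Every adjusted p in the text is limma's unless the t-test is named. The EB, with 1 array, has differences only, for genes above background in it or on at least 2 MEG3-ON arrays. Where every array of a group was below background, the fold is a bound against the lowest signal above background. The fits were checked on simulated data. Figures were drawn in Python 3.11.15 with matplotlib 3.10.9.

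The 10 genes and all lists were chosen with earlier results of these data known. Named were all 10 genes and each probe, from each list the genes past the threshold (up to 4 in each direction, or the 1 with the smallest p where none passed; not all of these are printed), and the 3 nearest genes of EZH2 and JARID2. Alternatives changed the background correction, filter, probe choice, fit, test and arrays.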

Additional observations from a re-analysis of the deposited data

Results flagged for a closer look

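Over 30 sets of 4 or 5 arrays (each probe above, in MEG3-OFF and in MEG3-ON cells), 2 had 1 array far from the others by Dixon's 95% criterion, where chance gives about 1.5. JARID2 in MEG3-OFF replicate 7 was 12.73, with 12.90 the nearest of its group, and without that array the difference to MEG3-ON was 0.33 with an adjusted p of 0.136 in limma. The PHF19 probe ILMN_1713249 in MEG3-ON replicate 4 was 7.67, with 8.30 the nearest, and without that array the difference was 0.05.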

How the results depend on the processing

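No gene of the 10 passed between MEG3-OFF and MEG3-ON in any of the 20 alternatives, and no probe in the 14 run for probes, leaving out each array included (0 to 0 genes and 0 to 0 probes called), though the calls over all genes ran between 137 (without MEG3-ON replicate 4) and 993 (without MEG3-OFF replicate 5), and over all probes between 160 and 1701 for the same arrays. The study's unpaired t-test with Benjamini-Hochberg adjustment, run on the same values, called 32 genes in place of 386, and without the filter on dim probes 282 probes were called in place of 510. Leaving out 1 array moved MTF2 between -0.08 and 0.04, SUZ12 between -0.14 and 0.02 and EED between -0.07 and 0.07, so these have no direction. Against MEG3-OFF, the calls for H9 were 1 of 10 with the mean of a gene's probes (3718 of all genes, in place of 3642) and 1 of 10 in a fit of the 2 groups alone (3170 of all genes; chosen after seeing the data), and 0 to 2 with 1 array left out. Over all genes they were 554 to 3916, the lowest without H9 replicate 2. Against MEG3-ON they were 0 to 4 of 10, and 1110 to 3186 over all genes, both lowest without H9 replicate 2. With 1 H9 array left, that array is assumed to vary like the other groups. With the mean of the probes, PHF19 turned to 0.06 against MEG3-OFF and RBBP4 to 0.15 against MEG3-OFF and 0.11 against MEG3-ON. Leaving out 1 array, RBBP7 ran between -0.02 and 0.32 against MEG3-OFF and between -0.12 and 0.22 against MEG3-ON, SUZ12 between -0.29 and 0.15 and between -0.35 and 0.08, and PHF19 between -0.10 and 0.15 against MEG3-ON. In the EB, 2 of 10 genes were past 1.5-fold without background correction (3001 of all genes, in place of 4306) and 2 of 10 by the authors' matrix (3000 of all genes), where MTF2 and RBBP4 were just short (-0.58 and 0.58), and 1 of 10 was past 2-fold, where 1981 of all genes were. Apart from the fewer arrays or genes in a setting, the cause was not tested. No paired analysis was possible because MEG3-OFF and MEG3-ON samples share no replicate numbers and those of H9 are not linked to NTU1 samples. Signal over background limits EZH1, which was above background on 3 of 12 arrays.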

Other observations

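COMPASS methyltransferases, which deposit methyl marks that oppose Polycomb silencing, had 4 of 11 genes lower in H9 than in MEG3-OFF cells, and 0 higher. Among them KMT2B gave -0.58 ± 0.19 and SETD1B -0.67 ± 0.21 (adjusted p = 0.0324 and 0.0280), a share of 36.4% where 31.4% of all genes were called. In PR-DUB, 3 of 7 genes were lower (a share of 42.9%, beside the same 31.4%), MBD6 (-0.82 ± 0.20), FOXK1 (-0.71 ± 0.17) and HCFC1 (-0.68 ± 0.14). Without H9 replicate 2, where 554 of all genes were called, 0 of the COMPASS and 0 of the PR-DUB genes were called. The COMPASS count was also 0 without MEG3-OFF replicate 8, 2 without replicate 7 or 9, 1 without the filter on dim probes and 7 with the mean of a gene's probes. KMT2B ran between -0.91 and -0.26 (adjusted p up to 0.468, without H9 replicate 2) and also lost its call without MEG3-OFF replicate 8 or 9, and SETD1B lost it without either H9 array or MEG3-OFF replicate 8 (adjusted p = 0.0514 to 0.132). In the EB, ASXL1 and FOXK1 of PR-DUB were above the MEG3-ON mean by 1.79 and 1.72, and the demethylase KDM6A was at 6.83 against 7.77 to 8.40 in MEG3-ON cells.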
